A study of Mus musculus with 10 samples.

Results

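The replication-dependent histone genes were examined in bulk RNA-seq of the forming mouse pinna. The family was defined by gene symbol, as every protein-coding gene named H1f1 to H1f5 or H2ac, H2bc, H3c or H4c followed by a number, and 67 of the 53465 genes in the count table met the definition. It was chosen from the measured WT and KI counts of the same libraries, after *H3c3* had been seen among the higher genes, so the members' differences between genotypes are given as descriptions, with the call made across all genes and no p for a member. Genes outside the family are given with their calls or values, and some of them with an adjusted p. The members were 5 H1, 18 H2A, 19 H2B, 12 H3 and 13 H4 genes. On GRCm39, 53 lie on chromosome 13, 10 on chromosome 3, 3 on chromosome 11 and 1 on chromosome 6.

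These genes supply the histones that package newly copied DNA. H2A, H2B, H3 and H4 form the core of the nucleosome, and H1 binds the linker DNA. Their mRNAs accumulate in S phase under the control of NPAT, and most end in a conserved stem-loop, bound by SLBP, in place of a poly(A) tail. Some members also give polyadenylated transcripts, often in cells that have left the cycle, while replacement histones such as H3.3 come from ordinary polyadenylated mRNAs all through the cycle.

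The study measured whole pinna prominences of C57BL6 embryos at E14.5. The study states 5 independent embryos for the wild type group (WT) and 5 for the *mEC1*dup/dup knock-in group (KI). In KI, CRISPR/Cas9 had added a further copy of mEC1, an enhancer of the homeobox gene *Hmx1*, on both alleles. Both preparation protocols described for the libraries select poly(A) RNA, so a histone mRNA that ends in the stem-loop alone would be captured poorly.

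Total counts ran from 17461544 to 18462073 per library. *Hmx1* had 376 to 526 counts in WT and 976 to 1356 in KI. *Xist*, which is transcribed from the inactive X of female cells, had at most 5 counts in every WT library, while KI1 to KI4 had 12812, 19040, 18165 and 2096 counts and KI5 had 0. KI1 and KI4 also held counts of Y-linked genes, with 241 and 1219 counts of *Ddx3y*. Sex and genotype therefore cannot be told apart by group, and KI5 is the only KI library without *Xist*. Whether KI1 and KI4 held tissue from embryos of both sexes was not tested.

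The stem-loop was looked for first, because it is the feature that sets these mRNAs apart. The search took the 150 bases after each stop codon on the sense strand and asked for 6 bases that open with GG, then any 4 bases, then the reverse complement of the 6. It found a match in 62 of the 67 members (92.5%) and in 101 of 21703 other protein-coding genes (0.465%). The members without a match were *H2ac22*, *H2bc22*, *H2bc23*, *H2bc24* and *H2bc21*. All 5 H1, 12 H3 and 13 H4 genes had one, as did 17 H2A and 15 H2B genes, and it began 21 to 58 bases after the stop codon with a median of 31. The sequences of 6 members are shown because they hold the forms found at the highest counts and at *H3c3*, with the stem and loop in capitals.
H3c3: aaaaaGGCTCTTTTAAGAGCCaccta
H3c6: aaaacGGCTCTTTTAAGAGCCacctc
H3c10: tcaaaGGCTCTTTTCAGAGCCaccca
H1f2: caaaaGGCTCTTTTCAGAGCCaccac
H2bc27: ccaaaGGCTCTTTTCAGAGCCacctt
H4c9: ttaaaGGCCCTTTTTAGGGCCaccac

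The capitals lie downstream of the stop codon, at chr13:23929030-23929045 on the minus strand for *H3c3* and at chr13:23746077-23746092 on the minus strand for *H3c6*. Those of *H3c10* are at chr13:21902265-21902280 and those of *H1f2* at chr13:23923495-23923510, both on the plus strand, and the annotated model of *H3c10* ends before its match. The *H2bc27* match is at chr11:58840175-58840190 on the plus strand and the *H4c9* match at chr13:22225136-22225151 on the minus strand. The form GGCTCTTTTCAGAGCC was present in 39 members, which covered H1, H2A, H2B and H3 genes. The form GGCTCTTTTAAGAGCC of *H3c3* was present in 8 members, among them *H3c6*, *H3c7*, *H2bc3*, *H2bc12* and *H2bc13*. Another form, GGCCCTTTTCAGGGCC, was present in 8 members, all of them H4 genes.

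A stem-loop in the sequence does not tell where a transcript ends. Of the 62 members with a match, 26 had an annotated transcript running more than 50 bases past it, and 17 gene models stopped before its last base. AATAAA or ATTAAA, the hexamers of the poly(A) signal, stood in the last 50 annotated bases of 16 members (23.9%), against 70.6% of the other protein-coding genes. The sense strand alone was searched.

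The family as a whole was counted at a low level, with 1214 to 1436 counts per library. That was 0.00749% of all counts. No library counted more than 51 of the members, and 11 had no count in any of the 10 libraries. These 11 were *H2ac1*, *H2ac10*, *H2ac18*, *H2ac19*, *H2ac21*, *H2ac24*, *H2bc1*, *H2bc18*, *H3c13*, *H3c14* and *H4c2*. A count of 0 allows up to 3 counts, or 0.162 to 0.173 CPM (counts scaled to library size), in a library, which covers counting error only. Of the 56 members with a count, 16 had enough for the fit across all genes. The least counted of these, *H2bc8*, had 104 counts in all libraries together, and the most counted member left out, *H2bc11*, had 94.

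A few genes carried most of the signal. *H1f2*, *H2bc27*, *H2bc21*, *H2bc4*, *H4c9*, *H2ac25* and *H3c3* were the 7 members whose log2 CPM averaged 1 or more, and they held 81.0% of the family's counts. *H3c3* reached that level through its KI libraries, and the other 6 members held 77.6%. Per kilobase of exon, *H2bc27* had the highest mean level of all members, at 16.7 CPM per kb. *H1f2* and *H4c9* followed at 10.4 CPM per kb each, and *H2bc21*, *H3c3*, *H2bc4* and *H2ac25* had 4.48, 4.12, 2.49 and 1.24 CPM per kb. Outside these 7 genes the highest level was 2.64 CPM per kb, for *H3c10*. The replacement H3.3 gene *H3f3b* stood at 305 CPM per kb on the same scale.

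These 7 members also had annotated ends to compare with the rest. A poly(A) signal stood at the annotated end of 5 of the 7, the exceptions being *H3c3* and *H2bc4*, and of 11 of the other 60 members. All 6 of them with a stem-loop match had a canonical transcript annotated more than 50 bases past it, against 20 of the 56 other members with a match. Leaving out *H3c3*, 5 of 6 had the signal, and all 5 with a match had such a transcript. The extension was 74 bases for *H3c3*, the shortest of the 6, and 8246 bases of genomic distance for *H2bc4*, whose long form is spliced. Summed over the 16 members with the signal, the level was 53.1 ± 1.72 CPM in WT and 52.7 ± 2.46 CPM in KI (SD, n = 5 each). Summed over the 51 members without it, the level was 20.7 ± 2.27 CPM in WT and 23.6 ± 1.31 CPM in KI, and 4 of the 5 KI libraries lay above all WT libraries. Without *H3c3* that sum was 19.0 ± 2.28 CPM in WT and 20.1 ± 1.37 CPM in KI, and 1 KI library lay above all WT libraries.

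**Figure D1:**
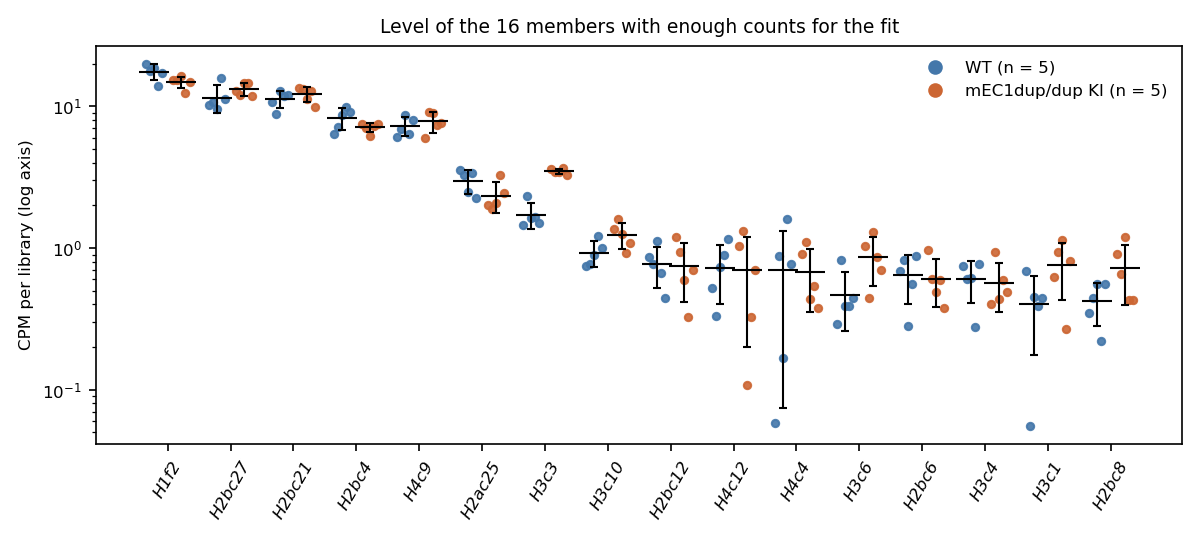
Level of the 16 members in the fit, in CPM per library on a log axis, ordered by mean level. Points are libraries, and bars give the mean ± SD of 5 WT or 5 KI libraries. *H3c3* is the only one of the 16 whose groups do not overlap.

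*H3c3*, which encodes a core histone H3, was the member with the clearest difference between genotypes. It lies at chr13:23928956-23929585 on the minus strand (GRCm39), as 1 exon of 630 bases. Its counts were 25, 42, 29, 30 and 27 in WT1 to WT5 and 63, 62, 63, 68 and 61 in KI1 to KI5. Every KI library was above every WT library, and KI5, with no *Xist*, was at 61 counts against at most 42 in WT. The mean level was 1.71 ± 0.355 CPM in WT and 3.48 ± 0.149 CPM in KI (SD, n = 5 each), and the fitted log2 fold change was 1.02 with a standard error of 0.16. The SD in KI was smaller than that in WT, where WT2 was highest.

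A gene was called across the whole table when its adjusted p did not exceed 0.05 and its log2 CPM averaged 1 or more. *H3c3* was the 1 member called higher in KI and 0 members were called lower. Over the 16426 genes tested, 0.834% were called higher and 1.81% lower by that rule, and 2.33% had every KI library above every WT library. Of the 16 members tested, 1 did. Because *H3c3* led to the choice of the family, nothing is read from these counts. With *Xist* as a covariate the log2 fold change of *H3c3* was 0.96, and with only KI5 set against WT it was 0.95. The call was lost in both, in fits that called 3 and 0 genes among all genes. In KI4 and KI5 against WT it was 1.02, again without a call.

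Markers of other cell types moved with genotype beside *H3c3*, and their part in its difference was not tested. Of 9 epithelial markers edgeR called 5 lower, and the summed list ran from 964 to 1830 CPM in WT and from 717 to 943 CPM in KI. The log2 fold changes were -1.97 for *Krt1* and -1.86 for *Krt10*, keratins of the upper epidermis, -0.79 for *Perp*, -0.69 for *Krt5* and -0.64 for *Krt14*. Of 9 muscle markers 3 were called lower, *Ckm* at -2.25, *Acta1* at -0.88 and *Ttn* at -0.72, with sums of 1190 to 1840 CPM in WT and 744 to 1130 CPM in KI. Of 7 cartilage markers *Comp* was called lower, at -1.24, with sums of 4890 to 8030 CPM in WT and 2150 to 6370 CPM in KI. *Col2a1*, the highest, was at -0.30 without a call. KI1 stood apart, with 23958 counts of *Col2a1* against 56416 to 77744 in the other KI libraries. It had 55 counts of *Comp* against 109 to 147. With *Xist* as a covariate none of these epithelial, muscle and cartilage calls was made, with *Krt1* at -1.85, *Ckm* at -1.85 and *Comp* at -1.23.

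Of 9 markers of fibroblasts, the main cells of this tissue, *Lum* was called lower, at -0.30. With *Xist* as a covariate *Lum* was at -0.37 without a call. The list summed to 13600 to 21800 CPM in WT and 14400 to 16300 CPM in KI. *Col3a1*, the highest of them, was at -0.28 without a call. With same-numbered libraries fitted as a block, *Col3a1* was called lower, among 3 fibroblast markers. That block called 8 epithelial, 6 muscle and 3 cartilage markers lower, and 1 of the melanocyte, glia and neuron list. Of 15 erythroid genes the embryonic globins *Hbb-y* and *Hba-x* were called higher, at 0.81 and 0.79 (limma-voom did not call *Hba-x*). *Hba-a2* was called lower, at -0.49, while *Hba-a1*, the highest, was at 0.03. With *Xist* as a covariate *Hba-x* and *Hba-a2* were called, *Hbb-y* was not, and *Hba-a1* was at 0.59. The list summed to 1350 to 2110 CPM in WT and 1520 to 3030 CPM in KI. KI5 stood apart, with 13835 counts of *Hbb-y* against 7141 to 8183 in the other KI libraries. The embryonic share of globin counts was 18.4% to 23.3% in WT and 32.5% to 35.6% in KI. Without the block, edgeR, DESeq2 and limma-voom called 0 of 6 endothelial, 6 macrophage and 9 melanocyte, glia and neuron markers. In these lists 1, 0 and 2 were at an unadjusted p under 0.05, all 3 of them lower in KI. Here and in the lists below, the share of all genes at that p is not given. Nothing is therefore read from such counts or their directions. The highest genes *Cdh5*, *Csf1r* and *Sox10* were at 0.01, -0.01 and 0.02, and the medians of the 3 lists were -0.02, -0.02 and -0.26, with *Sox10* the most positive gene of the last list. In bulk tissue, fewer cells of a type and less RNA per cell cannot be told apart.

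The promoter of *H3c3* is shown because it is the member that differed. RefSeq places it at chr13:23745472-23745771 on the minus strand of GRCm38.p6, from 250 bases before the transcript start to 50 bases after it. The capitals mark CCAAT, a motif of many histone promoters.
H3c3 promoter: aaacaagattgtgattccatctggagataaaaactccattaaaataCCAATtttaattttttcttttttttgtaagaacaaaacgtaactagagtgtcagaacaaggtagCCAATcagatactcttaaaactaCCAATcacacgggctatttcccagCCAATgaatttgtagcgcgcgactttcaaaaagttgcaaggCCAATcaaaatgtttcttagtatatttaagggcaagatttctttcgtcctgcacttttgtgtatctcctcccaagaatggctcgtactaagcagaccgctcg

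It held 5 matches to CCAAT and none to TATAAA, with both strands searched. Of the 57 members with a promoter in the RefSeq table, 49 (86.0%) held CCAAT and 34 (59.6%) held TATAAA. Among all 27025 promoters of the same length, 37.9% held CCAAT and 14.2% held TATAAA. A match describes the letters and not a bound factor.

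The other H3 genes of chromosome 13 lay lower, and their groups overlapped. *H3c10* had 13, 14, 16, 22 and 18 counts in WT and 24, 29, 23, 17 and 20 in KI, a log2 fold change of 0.42 with a standard error of 0.23. *H3c6* had 5, 15, 7, 7 and 8 counts in WT and 18, 8, 24, 16 and 13 in KI (0.88, SE 0.36). *H3c1* had 12, 1, 8, 7 and 8 counts in WT and 11, 17, 21, 5 and 15 in KI (0.90, SE 0.46). In each of these 3 genes the KI mean was higher, and at least 1 KI library lay within the WT range. With the KI libraries limited to KI4 and KI5, the log2 fold changes were 0.11 for *H3c10*, 0.73 for *H3c6* and 0.41 for *H3c1*. With KI5 alone they were 0.22, 0.58 and 1.00, and with *Xist* as a covariate 0.19, 0.60 and 0.81.

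*H3c4* had 13, 11, 11, 5 and 14 counts in WT and 7, 17, 8, 11 and 9 in KI, with no shift in one direction (-0.08, SE 0.34). *H3c11* ran from 4 to 11 counts in WT and from 5 to 17 in KI, and *H3c2* from 1 to 4 and from 2 to 9. *H3c8* ran from 3 to 13 counts in WT and from 2 to 7 in KI, and *H3c7* from 0 to 5 and from 0 to 8. These 4 genes were too low for the fit.

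**Figure D2:**
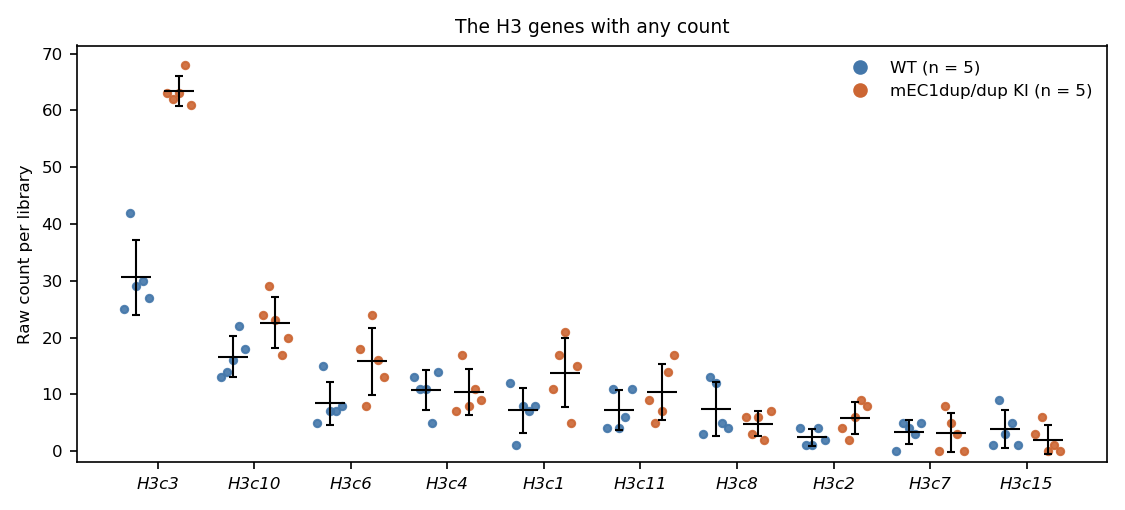
Raw counts per library of the 10 H3 genes with any count, ordered by total. Points are libraries and bars give the mean ± SD of 5. *H3c3* runs from 25 to 42 counts in WT and from 61 to 68 in KI, and the groups of the other 9 genes overlap.

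Summed by histone type, H3 was the only type whose groups did not overlap. Their summed level was 4.62, 6.75, 5.33, 5.21 and 5.43 CPM in WT1 to WT5 and 8.29, 8.65, 8.85, 7.87 and 8.12 CPM in KI1 to KI5. The mean was 5.47 ± 0.784 CPM in WT and 8.36 ± 0.395 CPM in KI, a difference of 0.61 in log2 CPM. *H3c3* gave 27.6% to 34.4% of the H3 counts of a WT library and 38.7% to 46.6% of those of a KI library. Without *H3c3* the H3 sum was 3.76 ± 0.465 CPM in WT and 4.88 ± 0.481 CPM in KI (0.37 in log2 CPM). In that sum 4 of the 5 KI libraries lay above all WT libraries, and KI4, at 4.21 CPM, lay below the highest WT library at 4.43 CPM.

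H1 counts came almost all from *H1f2*, which encodes a linker histone. It had 347, 323, 335, 251 and 311 counts in WT and 267, 277, 300, 232 and 276 in KI. The KI values lay in the lower part of the WT range or below it, WT4 was within the KI range, and the log2 fold change was -0.24 (SE 0.10), which was not called. The H1 sum was 18.5 ± 2.36 CPM in WT and 16.1 ± 1.5 CPM in KI. The next H1 gene, *H1f3*, had 3 to 8 counts in WT and 1 to 14 in KI.

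H2A was the type with the lowest sum, at 4.43 ± 0.838 CPM in WT and 3.81 ± 0.502 CPM in KI, although it has 18 genes. *H2ac25* held most of it, with 62, 59, 44, 61 and 41 counts in WT and 35, 34, 38, 61 and 45 in KI. KI4 was as high as the upper WT libraries and the other KI libraries lay between 34 and 45 counts, so the groups overlapped (-0.36, SE 0.20). Exons of *Trim17* and *Gm56433* cover 71.3% of the exonic bases of *H2ac25*, so its reads may be shared with them or left uncounted. *H2ac6* came next with 5 to 13 counts in WT and 4 to 8 in KI.

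H2B was the most abundant type, at 34.6 ± 4.38 CPM in WT and 37.0 ± 2.06 CPM in KI. *H2bc27* had 178, 193, 170, 288 and 204 counts in WT and 224, 219, 270, 272 and 220 in KI. WT4 was its highest library of all, and the groups overlapped (0.19, SE 0.13). *H2bc21*, which had no stem-loop match, had 187, 160, 230, 213 and 217 counts in WT and 237, 241, 208, 239 and 184 in KI. Scaled to library size, 2 KI libraries lay above all WT libraries, and the groups overlapped (0.11, SE 0.12). Its log2 fold change turned to -0.10 with *Xist* as a covariate. *H2bc4* had 110 to 180 counts in WT and 114 to 139 in KI (-0.21, SE 0.13). *H2bc8*, at 4 to 10 counts in WT and 8 to 22 in KI, had the largest fitted difference of the H2B genes (0.76, SE 0.37), with overlapping groups.

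H4 counts came mainly from *H4c9*, with a lowest, median and highest count of 106, 126 and 156 in WT and 105, 142 and 166 in KI. The groups covered nearly the same range (0.11, SE 0.14). *H4c12* had 9, 6, 13, 16 and 21 counts in WT and 18, 24, 2, 6 and 13 in KI (-0.07, SE 0.50), a spread within each genotype far larger than the difference of the means. The H4 sum was 10.7 ± 1.76 CPM in WT and 11 ± 1.29 CPM in KI.

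**Figure D3:**
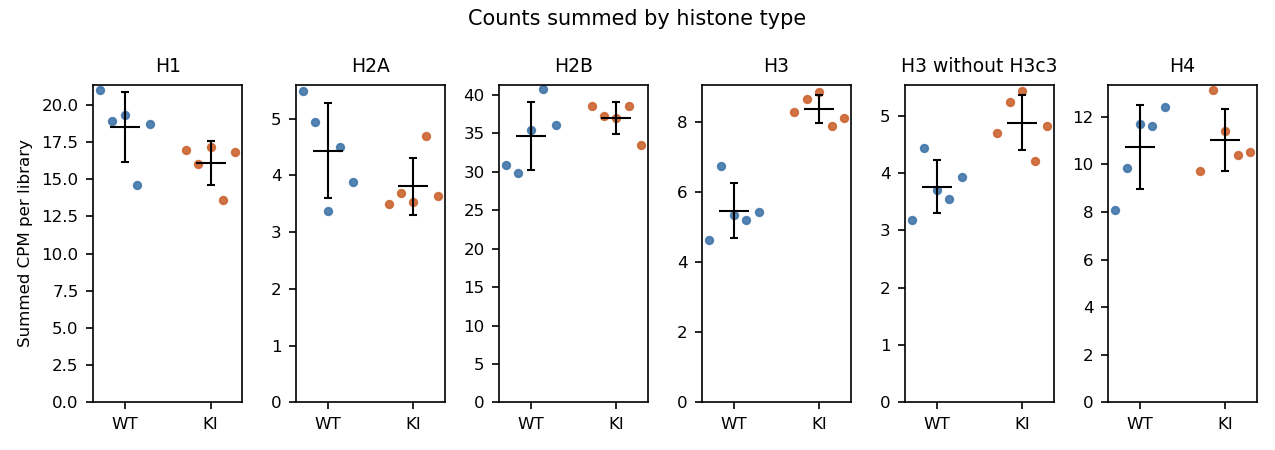
CPM summed over the members of each histone type in each library, with every axis from 0. Points are libraries and bars give the mean ± SD of 5. The H3 groups do not overlap, at 4.62 to 6.75 CPM in WT and 7.87 to 8.85 CPM in KI, and the groups of the other panels do.

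The family sum was 73.8 ± 3.27 CPM in WT and 76.3 ± 2.47 CPM in KI, and the groups overlapped. The difference was 0.05 in log2 CPM, against an SD between libraries of 0.06 in WT and 0.05 in KI. Among the 16 fitted members 8 had a positive log2 fold change and 8 a negative one. Their median was 0.03, and the median over all genes tested was -0.0041. Of the 40 counted members too low for the fit, 23 had the higher mean in KI and 17 the lower.

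By cluster, the 53 genes of chromosome 13 summed to 47.2 ± 2.48 CPM in WT and 48.0 ± 2.56 CPM in KI. The 10 genes of chromosome 3 summed to 11.6 ± 1.33 and 12.4 ± 1.64 CPM, nearly all of it from *H2bc21*. The 3 genes of chromosome 11, where *H2bc27* and *H2ac25* lie, summed to 14.7 ± 2.78 CPM in WT and 15.7 ± 1.69 CPM in KI. The groups overlapped in each cluster. Within chromosome 13 the 9 H3 genes summed to 5.26 ± 0.634 and 8.25 ± 0.383 CPM, while the 15 H2B genes summed to 11.7 ± 1.51 and 11.4 ± 0.503 CPM and the 11 H4 genes to 10.4 ± 1.81 and 10.8 ± 1.23 CPM. *H2bc3*, whose exons overlap 4.44% of those of *H3c3*, had 1 to 4 counts in WT and 2 to 4 in KI. Counts this low could not show a difference.

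**Figure D4:**
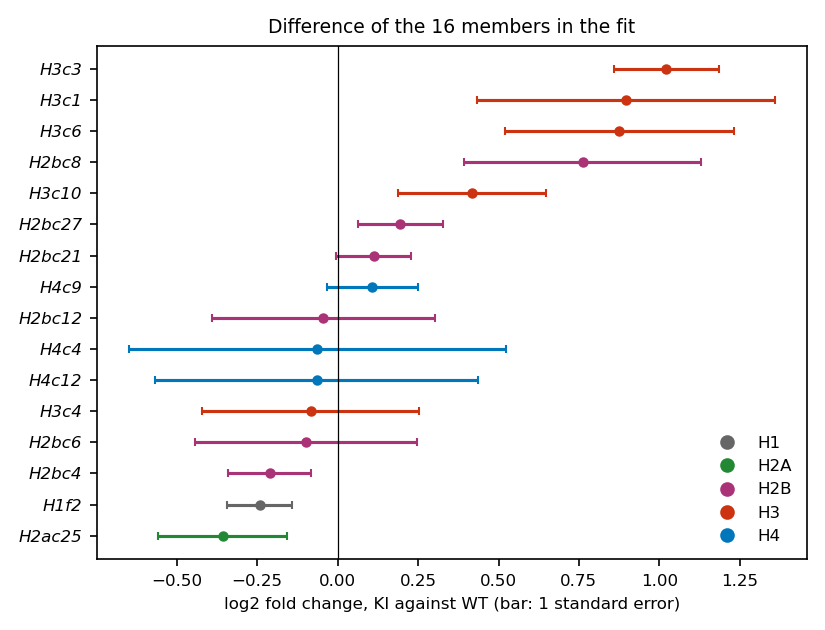
Fitted log2 fold change of KI against WT for the 16 members in the fit, with a bar of 1 standard error on each side, coloured by histone type. *H3c3* lies at 1.02, *H3c1* and *H3c6* at 0.90 and 0.88 with wider bars, and *H2ac25* is lowest at -0.36.

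The members share much of their coding sequence, which bears on how reads were assigned. Each 100-base stretch of their exons was looked up in the whole genome on both strands. A median of 33.7% of the stretches of a member was found again elsewhere, and in 24 members at least 50% were. All stretches of 5 members were repeated, *H2bc23*, *H2bc24*, *H2ac23*, *H2ac24* and *H2ac19*, so that no read of that length within 1 exon could be placed in these genes alone. By type, the median was 64.5% in H2A, 40.0% in H3, 27.4% in H2B, 19.0% in H4 and 0.792% in H1. The value was 28.4% for *H3c3*, 92.0% for *H3c10*, 42.9% for *H3c6* and 32.2% for *H3c1*.

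The highly counted members were among the less repeated ones. Their values ran from 0% for *H2bc21* and *H2ac25* to 28.4% for *H3c3*, and to 15.1% for *H4c9* with *H3c3* left out. The 24 members with at least 50% summed to 4.43 ± 0.416 CPM in WT and 5.31 ± 0.773 CPM in KI. The treatment of reads with several matches is not given in the sources used here, so low counts in the repeated members may be reads that were dropped, and counts of H3 genes that share sequence are uncertain as values of single genes. Exons of other annotated genes overlapped 33 of the 67 members.

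**Figure D5:**
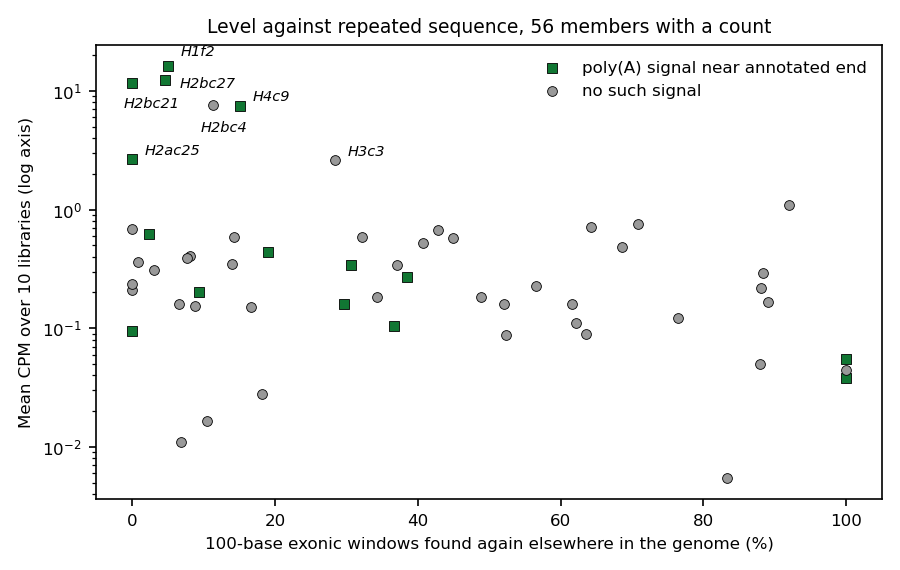
Mean CPM over the 10 libraries (log axis) against the percentage of 100-base exonic stretches found again in the genome, for the 56 members with a count. Squares have a poly(A) signal in the last 50 annotated bases. The 7 labelled members, with the highest levels, all lie at 28.4% or less.

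The spread between libraries of 1 genotype was set beside that of other genes of the same depth. The variance of the scaled counts within genotypes, divided by the mean, is 1 when counting is the only source of spread. Its median was 2.21 over the 27 members with a mean count of at least 5. *H4c4* had a ratio of 6.44, with 1, 16, 3, 29 and 14 counts in WT and 16, 20, 8, 10 and 7 in KI. *H1f4* had 5.39, with 18 counts in WT5 against 1 to 6 in the other WT libraries. The 22 members with a mean count of 5 to 50 had a median ratio of 2.04, and 4526 genes of that depth had a median of 1.95 and a 90th percentile of 4.42.

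The genes that act on these mRNAs gave no call. Of 23 tested genes for transcription and 3′ processing of histone mRNA, 0 were called by edgeR, DESeq2 or limma-voom, and 2 had an unadjusted p under 0.05, both higher in KI. *Slbp*, the stem-loop binding protein, had 70.3 ± 1.70 CPM in WT and 73.7 ± 3.82 CPM in KI (log2 fold change 0.07, edgeR adjusted p = 0.479). *Npat*, the coactivator of histone genes at the histone locus body, had 52.0 ± 2.54 and 51.6 ± 2.78 CPM (-0.01, edgeR adjusted p = 0.937). *Sympk*, a scaffold of the 3′ end cleavage complex, was the highest of the list with 225 ± 10.4 and 226 ± 12.8 CPM (SD, n = 5 each).

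Cell cycle lists were close to level between the genotypes. None of 46 S phase genes was called by edgeR, DESeq2 or limma-voom, with 5 at an unadjusted p under 0.05, all higher in KI. Their median log2 fold change was 0.04. *Mcm6*, a subunit of the replicative helicase, had 240 ± 3.81 CPM in WT and 243 ± 3.5 CPM in KI (SD, n = 5 each). None of 30 G2 and M phase genes was called by any of these tools, with 1 at an unadjusted p under 0.05 and a median of -0.01. *Top2a* had 308 ± 20.7 and 299 ± 18.4 CPM.

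Of 15 genes of cell cycle exit, 3 were called lower and 0 higher, and 4 had an unadjusted p under 0.05, 1 of them higher in KI. *Cdkn1a*, an inhibitor of cyclin-dependent kinases, had 72.2 ± 9.71 CPM in WT and 53.1 ± 7.65 CPM in KI (-0.44, SE 0.10, edgeR adjusted p = 0.0423). *Cdkn2c*, another such inhibitor, had 31.0 ± 2.69 and 24.4 ± 1.16 CPM (-0.35, SE 0.07, edgeR adjusted p = 0.0143), and all 5 KI libraries lay below WT. *Ccng1* had 68.4 ± 5.38 and 56.2 ± 5.26 CPM (-0.28, SE 0.07, edgeR adjusted p = 0.0483). *Ccnd2*, the highest of the list, was at 597 ± 49.3 and 605 ± 24.9 CPM.

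Among 12 tested variant and replication-independent histone genes 2 were called higher, and both encode macroH2A, an H2A variant with a large extra domain. In the list 7 had an unadjusted p under 0.05, 5 of them higher in KI and the rest lower. Without the share of all genes at that p, this count is not read as a result. *Macroh2a1* had 191 ± 3.33 CPM in WT and 223 ± 6.33 CPM in KI (0.22, SE 0.03, edgeR adjusted p = 0.00446). *Macroh2a2* had 162 ± 3.85 and 192 ± 6.05 CPM (0.24, SE 0.03, edgeR adjusted p = 0.00393). In both genes all 5 KI libraries lay above WT, and KI5, without *Xist*, had 4204 counts of *Macroh2a1* against at most 3555 in WT. The polyadenylated H3.3 gene *H3f3b* had 903 ± 21.8 and 934 ± 26.3 CPM (0.05, edgeR adjusted p = 0.524).

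Of 23 histone chaperones and handling genes 1 was called higher, and 4 had an unadjusted p under 0.05, all higher in KI. *Nasp*, which binds new H3 and H4 before their deposition, had 227 ± 7.36 CPM in WT and 257 ± 12.9 CPM in KI (0.18, SE 0.04, edgeR adjusted p = 0.0369), with all 5 KI libraries above WT. *Asf1b*, another H3 and H4 chaperone, had 33.9 ± 2.46 and 32.0 ± 1.49 CPM (-0.08, edgeR adjusted p = 0.549). *Npm1*, the highest of the list, had 891 ± 10.4 and 908 ± 28.8 CPM. None of the 6 calls in these 3 lists was made with *Xist* as a covariate, where the log2 fold changes were 0.25 for *Macroh2a1*, 0.26 for *Macroh2a2*, 0.11 for *Nasp*, -0.31 for *Cdkn1a*, -0.34 for *Cdkn2c* and -0.31 for *Ccng1*.

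Counts also fell on genes of other RNAs without a poly(A) tail. Whether these reads came from those RNAs or from longer transcripts over the same bases was not tested. Small nucleolar, Cajal body and other RNAs of this kind, 127 genes in the table, summed to 15.1 ± 1.72 CPM in WT and 13.1 ± 1.27 CPM in KI (SD, n = 5 each), with overlapping groups. Only 5 of them could be tested and 0 were called by edgeR, DESeq2 or limma-voom, with 2 at an unadjusted p under 0.05, both lower in KI. *Snord104*, a small nucleolar RNA and the highest of the 5, had 4.83 ± 1.07 CPM in WT and 3.51 ± 0.567 CPM in KI (-0.46, edgeR adjusted p = 0.221). How much RNA without a tail each library carried over, and its part in the histone counts, was not tested.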

How the data were processed

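For each of 10 libraries the authors deposited raw counts per gene, from featureCounts after trimming (fastp) and STAR alignment to GRCm39. The labels name NEBNext Ultra with poly-T beads, the study's methods TruSeq, and neither marks strand. Annotation release and treatment of multiply mapped reads are not given in the sources used here. The biological replicates were stated to be siblings from separate litters, without saying which.

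GENCODE vM39 matched 49355 of 53465 gene IDs. Genes passing edgeR's filterByExpr (16426) were TMM normalized and fitted with edgeR 4.0.16 (quasi-likelihood, genotype as the only term, Benjamini-Hochberg adjustment) in R 4.3.3. Calls required an adjusted p not above 0.05 and a log2 CPM averaging 1 or more. CPM are counts scaled to a TMM-adjusted library size of 1e+06, and log2 sums used a prior count of 2. DESeq2 1.42.0 and limma-voom 3.58.1 were alternatives. The fit was tested on simulated data.

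Depth limits precision at low counts, and reads without molecular identifiers make intervals cover counting error only. Members and lists were chosen with earlier results of these data known. Named members were those called, the 2 highest of each histone type and the chromosome 13 H3 genes. From the other lists, every called gene and the highest gene were named, with *Slbp*, *Npat* and *Hmx1*. *H2bc4*, *H2bc8*, *H2bc3*, *H2bc11*, *H4c4*, *H1f4*, *Asf1b* and *H3f3b* were named after their values were seen. Stem-loops came from the GRCm39 sequence and promoters from RefSeq (GRCm38.p6).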

Additional observations from a re-analysis of the deposited data

Results flagged for a closer look

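Dixon's ratio is the gap of the farthest library over the range of its group, taken on CPM. It exceeded 0.71, the limit for a group of 5 libraries, in 4 of 46 groups, where chance gives about 1 in 20. *H3c3* in WT had a ratio of 0.753, with 2.33 CPM (42 counts) in WT2 against 1.44 to 1.66 CPM (25 to 30 counts) in the others. *H3c6* in WT had 0.715, also from WT2, with 0.83 CPM (15 counts) against 0.289 to 0.443 CPM (5 to 8 counts). *H2bc27* in WT had 0.726, with 16 CPM (288 counts) in WT4 against 9.54 to 11.3 CPM (170 to 204 counts). The H2A sum in KI had 0.829, with 4.69 CPM in KI4 against 3.49 to 3.69 CPM in the others. Their causes were not tested.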

How the results depend on the processing

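All fits used the counts that led to the choice of *H3c3*, so its values describe the settings and support nothing. Its log2 fold change ran from 0.97 to 1.16 when any 1 library was left out, and it was called in 19 of 22 alternative fits. The call was absent in the 3 settings built on *Xist* counts, which gave 0 members called higher: *Xist* as a covariate, only libraries with fewer than 1000 counts of it (WT and KI5), and, added after seeing the data, fewer than 10000. The last 2 leave KI with 1 and 2 libraries, which are assumed to vary like WT. In the first 2 the difference of the summed family turned to -0.012 and -0.021. The H4 sum, at 0.04, turned to -0.01, -0.02 and -0.03 in these 3 settings, to -0.05 without WT1 and to -0.02 without KI2, and the H2B sum, at 0.10, to -0.04 with KI5 alone. The cause was not tested. Of 166 recomputed sums, 21 came from settings that do not enter a sum. Of the rest, all but the 2 of the summed family moved by less than 1 SD between libraries. So did all but 3 of 238 recomputed fold changes of named members. Leaving out 1 of 5 libraries can hardly move a group mean that far. The sums of the DESeq2 Wald test repeat those of the DESeq2 size factors. These counts therefore say little about how stable the values are.

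Over all genes, edgeR called 137 higher and 297 lower, DESeq2's Wald test 321 and 510, and fits without 1 library 34 to 179 and 120 to 476. With the replicate block, 200 and 487 were called, *H3c3* stood at 1.03 and 1 member was called higher. Same-numbered libraries correlated at -0.06 to 0.34, and 4 of 10 correlated best with their own number. These values cannot decide whether libraries of the same number share a litter or batch. No pairing is stated in the sources used here, so the main fit did not take the numbers as pairs. With 1 mismatched stem pair allowed, 62 members and 763 other genes (3.52%) held a stem-loop. With windows of 75 and 150 bases, 27 and 20 members had at least 50% repeated, and *H3c3* 36.2% and 15.6%.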
